A study of Mus musculus with 18 samples.

Results

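The genes described here are the ligands, receptors, secreted inhibitors and feedback genes of Wnt signaling in cell lines grown from mouse malignant peripheral nerve sheath tumors (MPNSTs). They were taken by gene name from the read-count table, as every gene of the Wnt, Rspo, Fzd, Dkk, Sfrp and Axin families, with *Lrp5*, *Lrp6*, *Lgr4*, *Lgr5*, *Lgr6*, *Lef1* and the *Tcf7* genes. This gave 53 of 35275 listed genes, of which 52 encode proteins and 1, *Rspo4os*, is an antisense RNA from within *Rspo4*. By role they were 19 Wnt ligands, 4 R-spondins, 10 Frizzled receptors, 2 LRP coreceptors, 3 LGR receptors, 4 Dickkopf inhibitors, 4 secreted Frizzled-related inhibitors, 2 Axin scaffolds and 4 TCF/LEF factors.

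Tumors were started in the sciatic nerve of wild-type 129 Sv/Jae mice with an adenovirus that carried Cas9 under a CMV promoter and guide RNAs. The guides were directed against *Nf1* and p53 (*Nf1*/*p53* dKO, labelled Nf1-/-;p53-/-) or against *Nf1* and *Cdkn2a*, the locus of p16 and p19 (*Nf1*/*Cdkn2a* dKO, labelled Nf1-/-;Cdkn2a-/-), so that both groups share the loss of *Nf1* and neither is a control with *Nf1* intact. RNA sequencing covered 3 lines per genotype, each from its own tumor and grown as 3 cultures, 18 libraries in all. The 2 sets are called *p53*-deleted and *Cdkn2a*-deleted lines below, after the gene that differs. The lines are not stated to be clones, and animal ages are not given for the single lines.

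In Wnt signaling, a secreted Wnt protein binds a Frizzled receptor together with the coreceptor LRP5 or LRP6, and Axin is drawn away from the complex that otherwise marks β-catenin for breakdown. β-Catenin then enters the nucleus and works with TCF/LEF factors. R-spondins bound to LGR receptors keep Frizzled receptors at the cell surface, Dickkopf proteins block LRP5 and LRP6, and secreted Frizzled-related proteins bind Wnt ligands outside the cell. *Axin2*, *Lef1* and several inhibitors are themselves targets of the pathway, and in peripheral nerve the pathway takes part in the growth and myelination of Schwann cells.

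Libraries held 19560535 to 28312207 counts (median 23149777), and a line, summed over its 3 cultures, 65206479 to 73065228. The genes of the list took 0.115% of all counts. Levels are given in CPM (counts scaled to the TMM-adjusted library size), values of the 3 lines of a genotype in the order of line 1, 2 and 3, and means ± SD with n = 3 lines. Line numbers name tumors and do not pair the genotypes. All 8 mesenchymal marker genes reached 1 CPM, and so did 6 of 8 Schwann cell genes in at least 1 line, with *Gap43* up to 59.6 CPM and *Ngfr* up to 64.3 CPM. *Sox10*, a transcription factor of Schwann cells, stayed under 1 CPM in every line. The summed level of 6 skeletal muscle genes was 53.7 to 417 CPM in the *p53*-deleted lines and 0.203 to 0.802 CPM in the *Cdkn2a*-deleted lines, and 5 of them reached 1 CPM in some line and *Pax7* in none. That of 6 leukocyte genes was 3.86 to 8.09 and 18.3 to 26.5 CPM, with 3 of them reaching 1 CPM in some line and *Ptprc*, *Tyrobp* and *Itgam* in none. The leukocyte sum was separated by 1 gene, *Laptm5*, at a mean of 0.251 and 13.8 CPM, and without it, a choice made after its values were seen, the other 5 genes came to 3.69 to 7.59 and 6.58 to 8.12 CPM and overlapped. The skeletal muscle sum separates the genotypes like several genes named below, and its part in those differences was not tested. Of the targeted genes, *Nf1* was at 27.7 to 70.0 CPM in the *p53*-deleted lines and 12.7 to 38.3 in the *Cdkn2a*-deleted lines, *Trp53* at 58.7 to 94.1 and 185 to 247, and *Cdkn2a* at 42.9 to 363 and 169 to 392. RNA of a gene edited by Cas9 can still be counted, so these levels check the labels only in part.

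Promoter sequences are shown for 4 genes whose levels did not overlap between the genotypes, as a view of the start sites that the differences concern. *Lgr6* and *Sfrp2* were higher in the *p53*-deleted lines, *Dkk2* and *Fzd7* in the *Cdkn2a*-deleted lines. Each run is the 250 bases before the RefSeq start of the gene on GRCm38.p6, written 5′ to 3′ on the strand of the gene, and none of these bases lies in an annotated exon. Capitals mark the letters of a TCF/LEF core (CTTTGNN on either strand, with each N adenine or thymine) or of TATAAA on the strand of the gene. *Lgr6* is read from chr1:135105277-135105526 (minus strand), *Sfrp2* from chr3:83766071-83766320 (plus), *Dkk2* from chr3:132085042-132085291 (plus) and *Fzd7* from chr1:59481897-59482146 (plus).
Lgr6: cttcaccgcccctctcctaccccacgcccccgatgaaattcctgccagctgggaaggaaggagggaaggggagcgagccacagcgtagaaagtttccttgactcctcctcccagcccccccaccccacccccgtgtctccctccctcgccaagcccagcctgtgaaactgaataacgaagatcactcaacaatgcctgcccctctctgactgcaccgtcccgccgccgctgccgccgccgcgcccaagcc
Sfrp2: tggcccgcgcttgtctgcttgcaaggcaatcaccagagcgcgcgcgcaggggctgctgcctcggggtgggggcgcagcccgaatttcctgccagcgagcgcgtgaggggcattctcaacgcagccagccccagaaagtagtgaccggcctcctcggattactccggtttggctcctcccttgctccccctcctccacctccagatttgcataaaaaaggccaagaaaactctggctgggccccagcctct
Dkk2: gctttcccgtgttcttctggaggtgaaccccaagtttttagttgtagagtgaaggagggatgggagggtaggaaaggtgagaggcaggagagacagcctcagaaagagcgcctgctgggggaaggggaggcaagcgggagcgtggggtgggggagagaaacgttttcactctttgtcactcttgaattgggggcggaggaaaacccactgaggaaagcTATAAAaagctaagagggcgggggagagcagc
Fzd7: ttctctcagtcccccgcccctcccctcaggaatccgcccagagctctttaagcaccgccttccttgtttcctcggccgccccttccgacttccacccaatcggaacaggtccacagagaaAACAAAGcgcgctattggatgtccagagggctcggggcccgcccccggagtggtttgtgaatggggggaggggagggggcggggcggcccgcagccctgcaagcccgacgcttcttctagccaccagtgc

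Of these 4 windows, that of *Fzd7* held a TCF/LEF core, AACAAAG on the strand of the gene, whose first letter is 130 bases before the start (position -130). That of *Dkk2* held TATAAA at position -32, and those of *Lgr6* and *Sfrp2* held neither. In the RefSeq table, 34 of the 53 genes had at least 1 window and 42 windows in all. A core was found in 6 of the 42 windows (14.3%) and in 14.8% of all 32851 windows, and TATAAA in 4 windows (9.52%) and in 7.59% of all. The other cores were at *Dkk1* and *Wnt11* and at internal starts of *Wnt5b*, *Lef1* and *Tcf7l2*, and the other TATAAA letters at *Dkk1*, *Fzd1* and *Wnt11*. The *Axin2* window held none. These are matches of letters within 250 bases and give no information on binding.

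Frizzled receptors and LRP coreceptors were counted in every line, and most ligands were low. Between 24 and 33 of the 53 genes reached 1 CPM in a line. No count was found in any library for *Dkk1*, *Fzd10*, *Wnt3a* and *Wnt9b*, 8 genes had fewer than 10 counts in all libraries together, and 31 were counted in all 18 libraries. A gene with 0 counts in a line of this depth can still have been present at up to 3 counts. The tests kept 39 of the 53 genes after a filter on low counts and left out *Dkk1*, *Dkk4*, *Fzd10*, *Rspo1*, *Rspo4*, *Rspo4os*, *Sfrp5*, *Wnt1*, *Wnt3*, *Wnt3a*, *Wnt6*, *Wnt8a*, *Wnt8b* and *Wnt9b*. A gene that passed only through the genotype in which it was high had to differ, so counts over the 39 describe those genes alone.

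**Figure D1:**
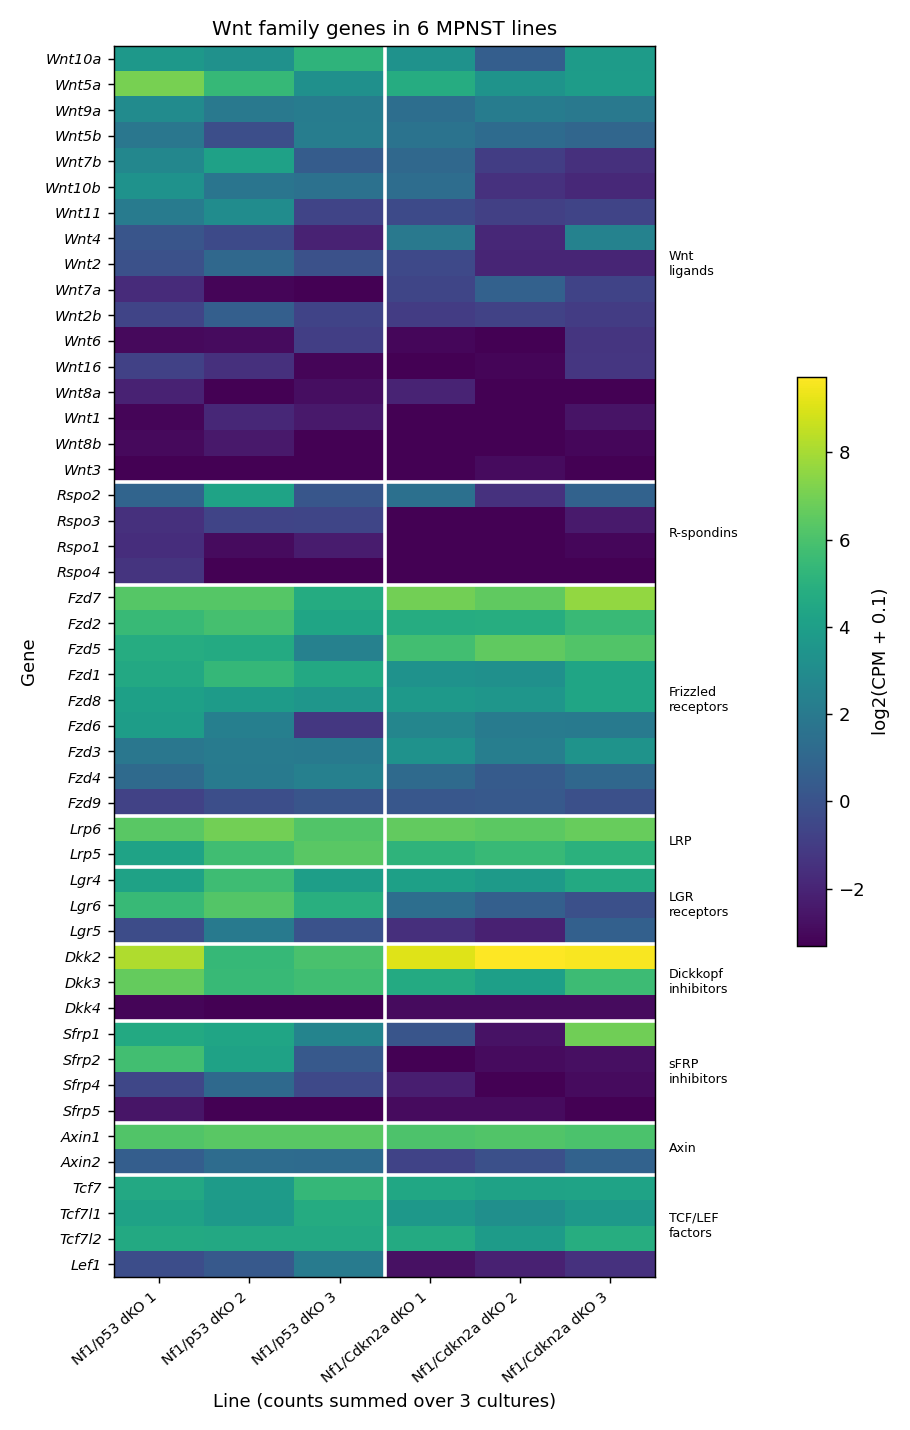
Heat map of the 48 protein-coding genes with a count in at least 1 library (rows, grouped by role) in the 6 lines (columns, counts summed over 3 cultures), with color giving log2(CPM + 0.1). *Dkk2* is bright in the *Cdkn2a*-deleted lines (550 to 847 CPM), *Lgr6* and *Sfrp2* are dark there, and *Sfrp1* is bright in a single *Cdkn2a*-deleted line.

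Between the genotypes, 1 of the 39 tested genes passed an adjusted p of 0.05 in the quasi-likelihood F test of edgeR, adjusted after Benjamini and Hochberg over 15207 genes. This was *Lgr6*, lower in the *Cdkn2a*-deleted lines. The share was 2.56%, beside 1.8% of all genes tested, 0.638% higher and 1.16% lower in the *Cdkn2a*-deleted lines. An unadjusted p under 0.05 was reached by 16 of the 39, 5 higher and 11 lower, beside 22.4% of all genes. In 16 of the 39 the levels of the 3 lines of a genotype lay wholly above those of the other (41.0%), beside 31.4% of all genes. Of these, 5 were higher in the *Cdkn2a*-deleted lines (14.8% of all genes) and 11 lower (16.6% of all genes). The median log2 fold change, *Cdkn2a*-deleted over *p53*-deleted, was -0.76 over the 39 and -0.02 over all genes, and its median absolute size 1.15 and 0.381. In bulk RNA, fewer cells of a type and less RNA per cell cannot be told apart.

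**Figure D2:**
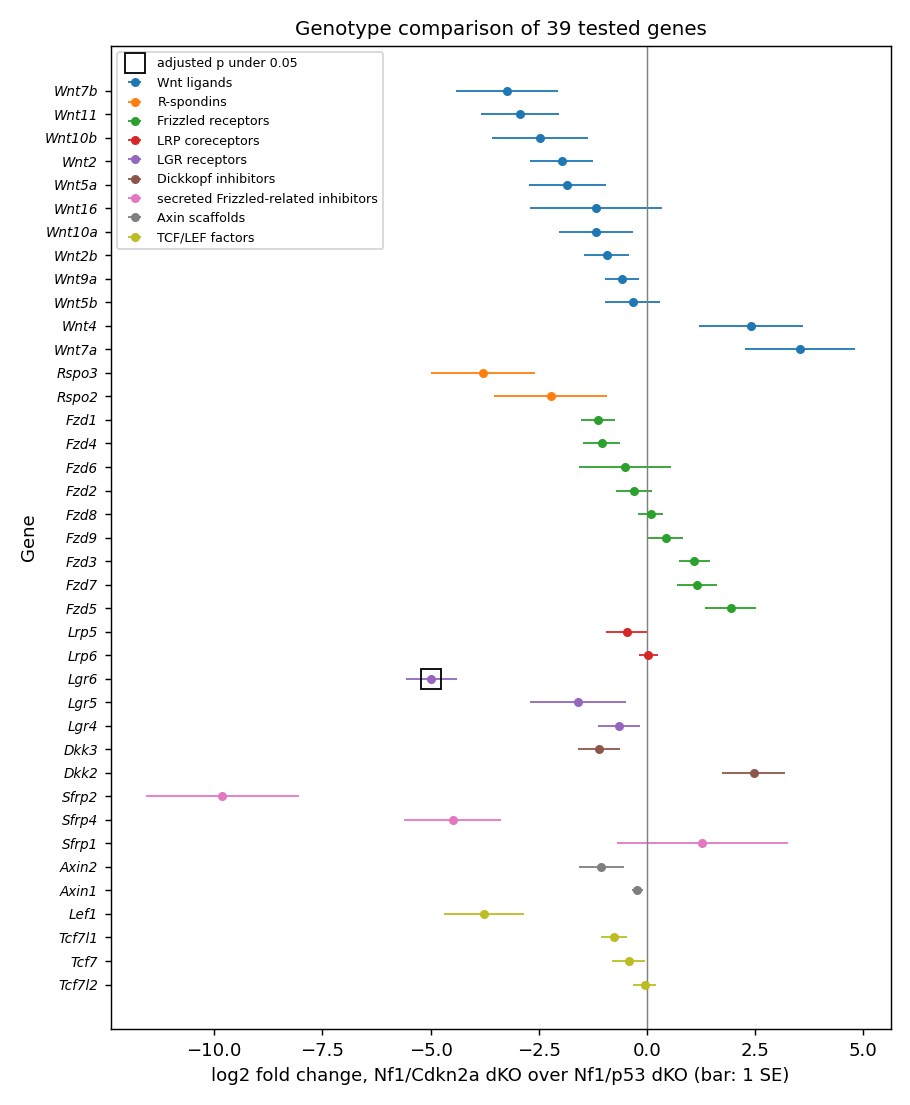
Fitted log2 fold change of each tested gene (points, colored by role) with 1 standard error (bars), where values left of 0 are lower in the *Cdkn2a*-deleted lines. The boxed point is *Lgr6*, the only gene past an adjusted p of 0.05, and the points run from -9.81 for *Sfrp2* to 3.54 for *Wnt7a*.

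Among the ligands, the summed level of the 19 Wnt genes was 181, 90.5 and 60.3 CPM in the *p53*-deleted lines and 52.8, 21.7 and 42.8 CPM in the *Cdkn2a*-deleted lines. The sums of the genotypes did not overlap, although the lowest and highest neighbors were close, and the largest part of the counts came from *Wnt5a* in every line but *p53*-deleted line 3, where it came from *Wnt10a*. Of the 12 tested ligands, 10 were fitted lower and 2 higher in the *Cdkn2a*-deleted lines (median log2 fold change -1.18), and none passed the adjusted threshold with edgeR (4 at an unadjusted p under 0.05, beside 22.4% of all genes, and 3 by DESeq2 on the 6 lines, beside 11.6%). Per kilobase of exon, *Wnt10a* had the highest mean level of the ligands (5.60 CPM per kb), followed by *Wnt5a* (5.04).

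*Wnt5a*, a ligand best known for signaling without β-catenin, was at 133, 42.7 and 9.34 CPM in the *p53*-deleted lines and at 26.6, 10.2 and 14.8 CPM in the *Cdkn2a*-deleted lines. Line 1 of the *p53*-deleted lines was highest and line 3 of the same genotype lowest, so the genotypes overlapped (log2 fold change -1.84, SE 0.888, adjusted p = 0.279). *Wnt10a*, which acts through β-catenin, was at 12.5, 9.58 and 35.3 CPM and at 9.87, 1.40 and 14.3 CPM. It overlapped too, and *Cdkn2a*-deleted line 2 stood far below the other lines.

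Ligands that act mainly through β-catenin were mostly low. *Wnt7b* was at 6.41, 17.8 and 1.27 CPM in the *p53*-deleted lines and 2.04, 0.418 and 0.250 CPM in the *Cdkn2a*-deleted lines, where line 1 lay above the lowest *p53*-deleted line (log2 fold change -3.23, SE 1.17, adjusted p = 0.176). *Wnt10b* was at 10.0, 3.25 and 2.81 CPM and 2.47, 0.260 and 0.188 CPM, without overlap (log2 fold change -2.46, SE 1.11, adjusted p = 0.253), and the log2 fold change was -4.56 without *Cdkn2a*-deleted line 1. *Wnt2*, at 0.838, 2.01 and 0.844 CPM and 0.626, 0.159 and 0.156 CPM, did not overlap either (adjusted p = 0.182). In each of the 3 genes, the highest line belonged to the *p53*-deleted lines.

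*Wnt11*, a ligand of cell movement in the embryo, was at 4.24, 8.01 and 0.540 CPM in the *p53*-deleted lines and 0.674, 0.462 and 0.532 CPM in the *Cdkn2a*-deleted lines. Line 3 of the *p53*-deleted lines lay among the *Cdkn2a*-deleted lines (log2 fold change -2.94, SE 0.902, adjusted p = 0.128). Without this line the adjusted p was 0.0451, the lowest with a line left out, and the highest was 0.2945. *Wnt7a* and *Wnt4* were the ligands fitted higher in the *Cdkn2a*-deleted lines. *Wnt7a* was at 0.206, 0.0141 and 0 CPM and at 0.561, 1.57 and 0.516 CPM, which is 17 counts against 177 and a ratio of 11.7 in depth-scaled counts (95% counting interval 7.13 to 20.6, adjusted p = 0.173). *Wnt4* was at 0.967, 0.665 and 0.138 CPM and at 3.83, 0.173 and 5.36 CPM, so line 2 of the *Cdkn2a*-deleted lines lay within the range of the *p53*-deleted lines (adjusted p = 0.292).

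Several Wnt genes lie in neighboring pairs in the genome, and in 3 of the 4 pairs on the list 1 partner gave nearly all of the counts. *Wnt10b* had 1393 counts over all libraries and *Wnt1*, 11.7 kb away on chromosome 15, 23 counts. *Wnt10a* had 5825 counts and *Wnt6*, 6.19 kb away on chromosome 1, 55 counts. *Wnt9a* had 1884 counts and *Wnt3a*, 16.2 kb away on chromosome 11, none, while *Wnt3* and *Wnt9b*, also on chromosome 11, had 2 and 0. The remaining ligands *Wnt2b*, *Wnt5b*, *Wnt9a* and *Wnt16* had fitted log2 fold changes of -1.18 to -0.33 (that of *Wnt5b* was 0.13 without *p53*-deleted line 3), and *Wnt2b* did not overlap between the genotypes.

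R-spondins were low apart from a single line. *Rspo2* was at 1.75, 18.8 and 1.01 CPM in the *p53*-deleted lines and 2.76, 0.260 and 1.60 CPM in the *Cdkn2a*-deleted lines. Line 2 of the *p53*-deleted lines stood above every other line, 6.83 times the next. The fitted log2 fold change was -2.23 (SE 1.3, adjusted p = 0.360) with this line and 0.17 without it. *Rspo3* was at 0.245, 0.537 and 0.567 CPM and 0, 0 and 0.0938 CPM, without overlap, with 98 counts against 6 and a ratio of 14.5 (95% counting interval 6.42 to 40.4, adjusted p = 0.137). *Rspo1* gave 27 counts in the *p53*-deleted lines and 1 in the *Cdkn2a*-deleted lines. *Rspo4* gave 23 counts, all in *p53*-deleted line 1, and 0 in the *Cdkn2a*-deleted lines, at least 6.80-fold higher against a floor of 3 counts over the group. *Rspo4os* gave 17 and 5 counts.

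Frizzled receptors were counted in every line, with a sum of 210, 233 and 96.5 CPM in the *p53*-deleted lines and 246, 245 and 370 CPM in the *Cdkn2a*-deleted lines. These sums did not overlap, although the nearest lines were close. Of the 9 tested, 5 were fitted higher and 4 lower in the *Cdkn2a*-deleted lines (with raw library totals 4 and 5, since *Fzd8* changed sign). None passed the adjusted threshold with edgeR (5 at an unadjusted p under 0.05, beside 22.4% of all genes, and 2 by DESeq2 on the 6 lines, beside 11.6%). *Fzd7*, a receptor found in many embryonic and tumor cells, had the highest mean level per kilobase of the receptors at 21.8 CPM per kb.

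*Fzd5* was at 26.7, 25.4 and 5.31 CPM in the *p53*-deleted lines and 54.7, 91.4 and 73.2 CPM in the *Cdkn2a*-deleted lines, 19.1 ± 12.0 against 73.1 ± 18.4. The genotypes did not overlap (log2 fold change 1.93, SE 0.585, adjusted p = 0.125). *Fzd7* was at 78.4, 78.8 and 26.3 CPM and 122, 93.0 and 194 CPM, again without overlap but with near neighbors (log2 fold change 1.15, SE 0.469, adjusted p = 0.214). In both genes line 3 was the lowest of the *p53*-deleted lines. *Fzd3*, which acts in planar cell polarity, was at 3.53, 4.27 and 3.89 CPM and 9.95, 4.73 and 10.2 CPM (log2 fold change 1.09, SE 0.358, adjusted p = 0.147).

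*Fzd1* ran the other way, at 23.1, 41.3 and 23.1 CPM in the *p53*-deleted lines and 10.1, 9.30 and 20.5 CPM in the *Cdkn2a*-deleted lines (log2 fold change -1.13, SE 0.400, adjusted p = 0.168). Its genotypes did not overlap, while those of *Fzd4*, at 2.15, 4.02 and 4.98 CPM and 2.21, 1.23 and 1.95 CPM, did (adjusted p = 0.221). *Fzd6* varied more within a genotype than any other Frizzled gene, at 15.1, 4.79 and 0.332 CPM in the *p53*-deleted lines, 45.3-fold between the highest and the lowest line, and 3.86 to 6.19 CPM in the *Cdkn2a*-deleted lines. *Fzd2*, *Fzd8* and *Fzd9* overlapped between the genotypes, with fitted log2 fold changes of -0.30, 0.09 and 0.43, and those of *Fzd2*, *Fzd6* and *Fzd8* changed sign when single lines were left out.

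The coreceptors were present in every line. *Lrp6* was at 83.0, 124 and 72.9 CPM in the *p53*-deleted lines and 96.0, 88.1 and 102 CPM in the *Cdkn2a*-deleted lines, and its fitted log2 fold change of 0.03 (SE 0.217) took the other sign with upper-quartile factors or raw library totals. *Lrp5* was at 19.0, 52.7 and 83.0 CPM and 36.1, 44.0 and 32.1 CPM, and all its *Cdkn2a*-deleted lines lay within the range of the *p53*-deleted lines. *p53*-deleted line 3 was the single line in which *Lrp5* was counted above *Lrp6* in CPM per kb, 8.52 against 5.33.

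The single called difference of the list was in the LGR receptors. *Lgr6* (ENSMUSG00000042793, chr1:134983301-135105276, minus strand, GRCm38), a receptor for R-spondins that marks stem cells of the skin, was lower in the *Cdkn2a*-deleted lines. It was at 44.2, 76.5 and 30.2 CPM in the *p53*-deleted lines and 2.55, 1.43 and 0.798 CPM in the *Cdkn2a*-deleted lines, 50.3 ± 23.8 against 1.59 ± 0.888. The lowest *p53*-deleted line stood far above the highest *Cdkn2a*-deleted line. The mean was 31.6-fold lower in the *Cdkn2a*-deleted lines, with a log2 fold change of -4.98 (SE 0.581, adjusted p = 0.0272).

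With a line left out, the log2 fold change of *Lgr6* ran from -5.49 to -4.53. The call held without *p53*-deleted line 1 or 3 and was lost without *p53*-deleted line 2 (adjusted p = 0.0658) and without *Cdkn2a*-deleted line 1, 2 or 3 (adjusted p = 0.0929, 0.112 and 0.0708). With a line left out, 0 to 1.11% of all genes were called, beside 1.8% with all 6 lines. The skeletal muscle sum given above separated the same lines, and its part in this difference was not tested.

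*Lgr4*, the LGR receptor with the broadest expression, was at 18.1, 51.4 and 15.9 CPM in the *p53*-deleted lines and 17.0, 13.8 and 23.9 CPM in the *Cdkn2a*-deleted lines. Apart from *p53*-deleted line 2, the lines lay close together, and the log2 fold change of -0.64 (SE 0.492, adjusted p = 0.481) was 0.11 without that line. *Lgr5*, a marker of intestinal stem cells and a pathway target, was at 0.722, 4.09 and 0.872 CPM and 0.241, 0.130 and 1.52 CPM, again highest in *p53*-deleted line 2. Set against each other in CPM per kb, *Lgr6* was at 6.45, 11.2 and 4.40 in the *p53*-deleted lines, where *Lgr4* was at 3.08, 8.74 and 2.71. In the *Cdkn2a*-deleted lines *Lgr6* was at 0.372, 0.208 and 0.116 CPM per kb and *Lgr4* at 2.89, 2.34 and 4.07, so the order of the 2 receptors was opposite in the genotypes.

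**Figure D3:**
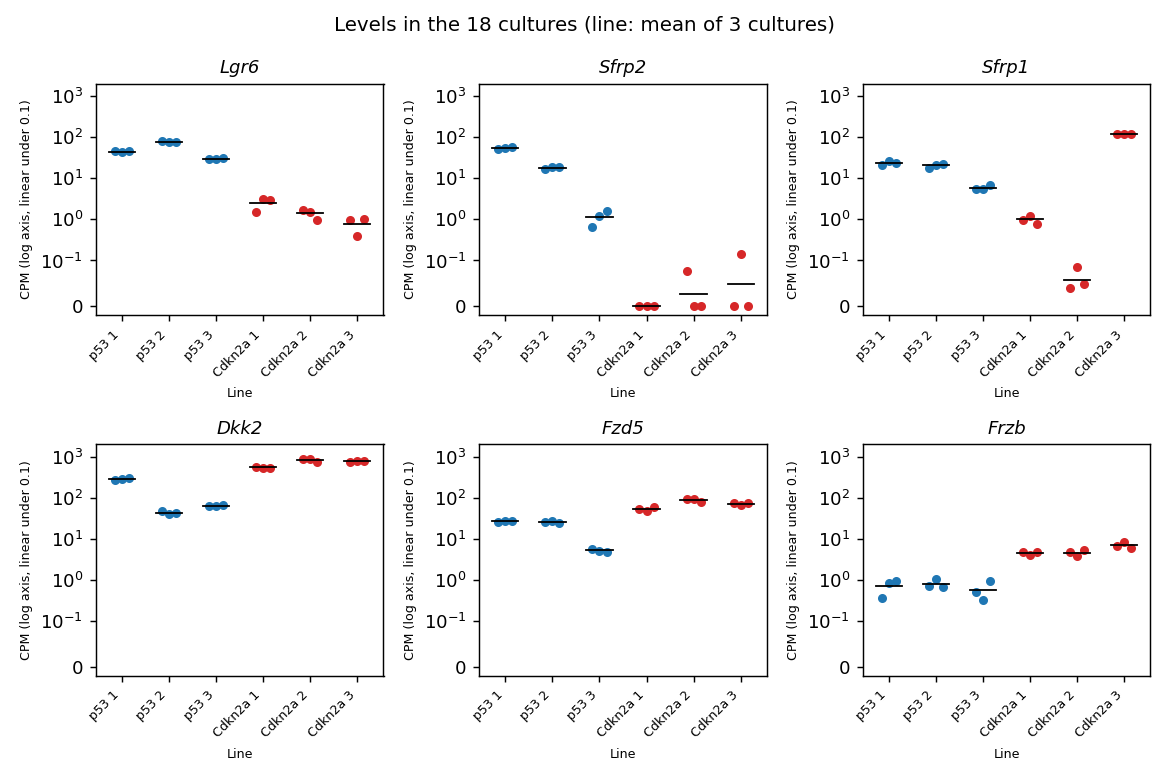
CPM of 6 genes in each of the 18 cultures (points, blue for *p53*-deleted and red for *Cdkn2a*-deleted, log axis that is linear under 0.1), with the mean of the 3 cultures of a line as a bar. Cultures of a line mostly lie close together, but some lines of a genotype overlap, as the *p53*-deleted lines do for *Frzb*. *Sfrp1* reaches 121 CPM in *Cdkn2a*-deleted line 3 alone of its genotype.

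Of the Dickkopf inhibitors, *Dkk2* stood out by its level. It was at 287, 43.4 and 63.9 CPM in the *p53*-deleted lines and 550, 847 and 779 CPM in the *Cdkn2a*-deleted lines, 131 ± 135 against 725 ± 156, and its mean of 116 CPM per kb was the highest of the whole list. The lowest *Cdkn2a*-deleted line lay above the highest *p53*-deleted line, which was line 1. The difference did not pass the adjusted threshold (log2 fold change 2.46, SE 0.729, adjusted p = 0.119). Without *p53*-deleted line 1 the log2 fold change was 3.76 and the adjusted p 0.0323. That was the lowest adjusted p with a line left out, and the highest was 0.252. *Dkk3*, a relative that does not block LRP5 and LRP6 in the same way, was at 99.9, 44.9 and 53.5 CPM and 25.3, 16.5 and 49.8 CPM (log2 fold change -1.11, SE 0.479, adjusted p = 0.234). *Cdkn2a*-deleted line 3 lay within the range of the *p53*-deleted lines for *Dkk3*. *Dkk1* gave no count and *Dkk4* 7 counts in all, 1 in the *p53*-deleted lines and 6 in the *Cdkn2a*-deleted lines.

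The secreted Frizzled-related inhibitors held the largest fitted difference of the list and the widest spread within a genotype. *Sfrp2* was at 54.2, 17.9 and 1.15 CPM in the *p53*-deleted lines and 0, 0.0288 and 0.0469 CPM in the *Cdkn2a*-deleted lines, that is 5557 counts against 5. Every *p53*-deleted line lay above every *Cdkn2a*-deleted line, but the former spanned 47.2-fold among themselves. The depth-scaled ratio was 986 (95% counting interval 422 to 3037), and the fitted log2 fold change of -9.81 (SE 1.76) had an adjusted p of 0.0512. With edgeR on the lines, it was under 0.05 with upper-quartile factors (0.0497), raw library totals (0.0452) and no filter on low counts (0.0309). It was not with DESeq2 size factors or with the line number as a block. With a line left out it ran from 0.0380 (without *p53*-deleted line 3) to 0.159. Of 12 alternatives on the lines, DESeq2 included, 5 called *Sfrp2*.

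*Sfrp4* was at 0.593, 2.07 and 0.637 CPM and 0.112, 0 and 0.0313 CPM, with 238 counts against 9 and a ratio of 23.5 (95% counting interval 12.1 to 51.9, adjusted p = 0.0904). *Sfrp1* was at 23.9, 20.4 and 5.85 CPM in the *p53*-deleted lines and 0.979, 0.0577 and 121 CPM in the *Cdkn2a*-deleted lines. *Cdkn2a*-deleted line 3 was the highest of all 6 lines and lines 1 and 2 of that genotype the lowest, a span of 2093-fold within the genotype. Its log2 fold change was 1.28 (SE 1.97, adjusted p = 0.737) with line 3 and -5.01 without it. *Sfrp5* gave 5 counts in the *p53*-deleted lines and 4 in the *Cdkn2a*-deleted lines. In *Cdkn2a*-deleted line 1 and line 2, the 4 genes together came to 1.12 and 0.115 CPM.

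**Figure D4:**
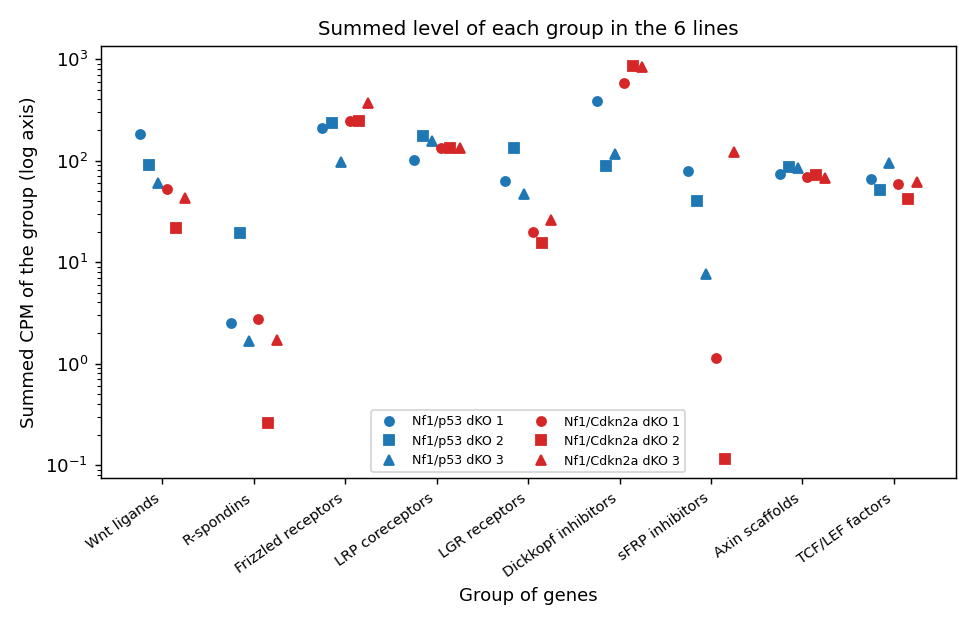
Summed CPM of each group of genes in each line (log axis, marker shape for the line number, blue for *p53*-deleted and red for *Cdkn2a*-deleted). Wnt ligand, LGR and Axin sums lie higher and the Dickkopf and Frizzled sums lower in all *p53*-deleted lines. For the Axin and Frizzled sums the nearest lines are close. The secreted Frizzled-related sum runs from 0.115 to 121 CPM.

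The feedback targets *Axin2* and *Lef1* were counted at low levels. *Axin2*, the most widely used readout of signaling through β-catenin, was at 1.39, 2.38 and 2.3 CPM in the *p53*-deleted lines and 0.513, 0.808 and 1.60 CPM in the *Cdkn2a*-deleted lines. *Cdkn2a*-deleted line 3 lay above the lowest *p53*-deleted line (log2 fold change -1.05, SE 0.517, adjusted p = 0.283). *Axin1*, the constitutive scaffold, was at 72.7, 84.6 and 82.9 CPM and 67.7, 72.1 and 65.3 CPM, without overlap but with a small log2 fold change of -0.23 (SE 0.126, adjusted p = 0.334). Per kilobase, *Axin2* had a mean of 0.272 CPM against 19.4 for *Axin1*.

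*Lef1* was the lowest of the TCF/LEF factors in level per kilobase and the most different in fitted size. It was at 0.748, 1.16 and 4.19 CPM in the *p53*-deleted lines and 0.0481, 0.130 and 0.266 CPM in the *Cdkn2a*-deleted lines, with 443 counts against 29 and a ratio of 13.5 (95% counting interval 9.30 to 20.5). The genotypes did not overlap (log2 fold change -3.76, SE 0.930, adjusted p = 0.0875). *Tcf7l1*, mostly a repressor, did not overlap either, at 18.3, 13.4 and 26.4 CPM and 12.1, 8.83 and 13.3 CPM (log2 fold change -0.76, SE 0.309, adjusted p = 0.214). *Tcf7*, at 23.2, 14.2 and 41.3 CPM and 21.6, 18.3 and 19.1 CPM, and *Tcf7l2*, at 23.9, 23.1 and 23.5 CPM and 25.3, 14.3 and 28.3 CPM, overlapped. For *Lef1*, *Tcf7* and *Tcf7l1*, *p53*-deleted line 3 was the highest of the 6 lines.

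Lines of the same genotype differed widely. With the 18 cultures in 6 line groups, an edgeR quasi-likelihood test among the 3 lines of a genotype called 32 of 38 tested genes of the list in the *p53*-deleted lines (84.2%, beside 73.2% of all 14690 genes) and 27 in the *Cdkn2a*-deleted lines (71.1%, beside 56.8% of all). Both tests called 24 of these 38 genes, beside 6906 of the 14419 genes that passed the filters of this fit and of the genotype fit. These p-values rest on the spread between cultures of a line, which may be technical. The share of variance that lay between lines had a median of 96.3% over the genes of the list and 85.9% over all genes in the *p53*-deleted lines, and 79.6% and 57.8% in the *Cdkn2a*-deleted lines. The median log2 range from the lowest to the highest line was 1.69 against 0.68 over all genes in the *p53*-deleted lines, and 1.06 against 0.48 in the *Cdkn2a*-deleted lines.

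Of the 39 tested genes, *p53*-deleted line 2 had the highest level in 14 (it was highest in 16.22% of all genes tested), among them *Rspo2*, *Lgr4*, *Lgr5*, *Lgr6*, *Wnt7b* and *Wnt11*. The other *p53*-deleted lines were highest in 7 (line 1, beside 14.15% of all genes) and 8 (line 3, beside 25.86%), and the *Cdkn2a*-deleted lines in 0, 4 and 6 (beside 9.226%, 15.81% and 18.73%). *Cdkn2a*-deleted line 2 was lowest in 12 genes (beside 17.93% of all genes), *p53*-deleted line 3 in 9 (beside 25.48%) and *Cdkn2a*-deleted line 1 in 7 (beside 11.48%). *Tcf7l2* in the *p53*-deleted lines (adjusted p = 0.837) and *Wnt2b* in the *Cdkn2a*-deleted lines (adjusted p = 0.966) were among the genes for which no difference between lines was called.

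Outside the list, 65 other genes of the pathway were taken as background to it, 56 of which were tested. Of these, 2 passed the adjusted threshold with edgeR (3.57%, beside 1.8% of all genes). An unadjusted p under 0.05 was reached by 12, 6 in each direction, beside 22.4% of all genes. The median log2 fold change was -0.01. *Frzb*, which encodes a further secreted Frizzled-related protein outside the Sfrp names, was higher in the *Cdkn2a*-deleted lines. It was at 0.735, 0.820 and 0.581 CPM in the *p53*-deleted lines and 4.62, 4.64 and 6.98 CPM in the *Cdkn2a*-deleted lines, 7.60-fold higher in the mean (log2 fold change 2.92, SE 0.350, adjusted p = 0.0272). The lines of a genotype lay close together and the genotypes far apart. *Pygo2*, a cofactor of β-catenin in the nucleus, was lower there, at 98.9, 99.0 and 110 CPM in the *p53*-deleted lines and 59.5, 66.3 and 60.0 CPM in the *Cdkn2a*-deleted lines (log2 fold change -0.73, SE 0.123, adjusted p = 0.0465). Neither call held when any single line was left out, with adjusted p of 0.0520 to 0.112 for *Frzb* and 0.0718 to 0.164 for *Pygo2*. The log2 fold changes then ran from 2.705 to 3.049 and from -0.776 to -0.672. In those fits 0 to 1.11% of all genes were called, beside 1.8% with all 6 lines.

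Among the other secreted or membrane regulators, *Apcdd1*, a pathway inhibitor and target, was at 34.6, 56.8 and 17.0 CPM and 76.5, 115 and 135 CPM (log2 fold change 1.59, SE 0.449, adjusted p = 0.110). *Tpbg*, a membrane protein that dampens LRP6 signaling, was at 66.4, 57.0 and 24.7 CPM and 102, 119 and 124 CPM (log2 fold change 1.22, SE 0.354, adjusted p = 0.116). Like *Dkk2* and *Frzb*, both were higher in the *Cdkn2a*-deleted lines without overlap. So were 9 of the 56 tested other pathway genes, these included, and 14.8% of all genes. The inhibitors *Sfrp2* and *Sfrp4* did not overlap in the other direction. *Cthrc1*, *Dact2* and *Wisp1* were fitted lower there (log2 fold changes -4.78, -5.73 and -2.22, adjusted p = 0.125, 0.0521 and 0.101). *Vangl1* and *Dvl2* were fitted lower by less (-0.76 and -0.57), and *Tle4*, *Ldb1* and *Cd44* higher (1.34, 0.50 and 0.55).

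*Ctnnb1*, which encodes β-catenin, was at 547, 580 and 669 CPM in the *p53*-deleted lines and 581, 649 and 612 CPM in the *Cdkn2a*-deleted lines, and the genotypes overlapped. *Wls*, which carries Wnt proteins to the cell surface, was at 228, 157 and 322 CPM and 214, 166 and 281 CPM. Of 13 known feedback targets, *Axin2*, *Lef1*, *Tcf7*, *Lgr5* and *Dkk1* included, 10 were tested, with a median log2 fold change of -0.53. None passed the adjusted threshold with edgeR, 2 did by DESeq2 on the 6 lines (beside 11.6% of all genes), and the same 2 reached an unadjusted p under 0.05 with edgeR (beside 22.4% of all genes), *Apcdd1* higher and *Lef1* lower in the *Cdkn2a*-deleted lines. Below the filter, *Nkd1* gave 0, 32 and 63 counts in the *p53*-deleted lines and 0, 2 and 0 in the *Cdkn2a*-deleted lines, so that the genotypes overlapped. *Cer1*, a secreted inhibitor of Wnt and Nodal signaling, gave 113 counts and 0. It was at least 33.4-fold higher in the *p53*-deleted lines against a floor of 3 counts over the group. *Rnf43*, also below the filter, gave 17 counts in the *p53*-deleted lines and 34 in the *Cdkn2a*-deleted lines, with overlap. Its ratio was 2.26 (counting interval 1.23 to 4.30). *Nkd2*, which was tested, was at 0.812, 4.95 and 0.249 CPM and 6.56, 6.55 and 21.9 CPM, higher in the *Cdkn2a*-deleted lines without overlap. Its log2 fold change was 2.54 (SE 1.12, adjusted p = 0.243 with edgeR).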

How the data were processed

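RNA was measured in 18 libraries, 3 cultures of each of 6 mouse MPNST lines, and all count columns were used. The authors deposited raw counts of reads for each gene in each library, with no scaling applied. The submitters' processing notes name CASAVA, STAR 2.5, DESeq2 1.14.1 and GRCm38 (mm10). The counting tool, its annotation and its strand setting are not given in the sources used here, so reads of a gene and an overlapping antisense gene cannot be told apart.

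The 3 cultures of a line were added together. Genes passing filterByExpr (minimum count 10, minimum total 15) were scaled with TMM (factors 0.941 to 1.06) and compared between genotypes with edgeR's quasi-likelihood test (edgeR 4.0.16, R 4.3.3) and Benjamini-Hochberg adjustment over all 15207 genes. The methods of the paper name DESeq2, which was run as an alternative (1.42.0). Every pair of cultures of a line differed beyond sampling noise (chi-square per degree of freedom 3.57 to 29.2). Counting intervals are exact, at 95%, and cover counting error only, as do floors of 3 counts. Exon lengths came from GENCODE M21 and promoters from RefSeq (GRCm38.p6), where 34 of 53 genes had an entry.

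The genes named are those with an adjusted or unadjusted p under 0.05, those without overlap and an absolute log2 fold change of at least 1, the highest per kilobase and the highest and lowest fitted change of each role, any gene with 1 line at least 10-fold above the others, and pathway genes under 0.05. Other members are named to account for the whole list, and a few other pathway genes are named outside these rules. The genes and lists were chosen with earlier results of these data known. On simulated counts for 14900 genes, 9, 31, 45 and 49 of 50 genes changed by 1, 2, 3 and 4 on the log2 scale were called between genotypes, with 5 of 14700 unchanged genes. The changed genes were drawn at random from all genes over 1 CPM, not from the list.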

Additional observations from a re-analysis of the deposited data

How the results depend on the processing

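Of 646 fitted values of the 39 tested genes of the list under the alternatives, 625 kept their direction and 21 reversed, in 11 genes, and all 202 values of 12 other pathway genes kept theirs. The log2 fold change of *Sfrp1* reversed to -3.01 with limma-voom and -3.95 with the line number as a block, that of *Fzd6* to 0.55 and 0.47 with the same, that of *Lrp6* to -0.011 with upper-quartile factors and -0.095 with raw library totals, and that of *Fzd8* to -0.046 with raw library totals. With a line left out in turn, the log2 fold changes ran from -5.01 to 1.87 for *Sfrp1*, -0.11 to 0.31 for *Lrp6*, -0.93 to 0.11 for *Lgr4*, -2.95 to 0.17 for *Rspo2*, -0.86 to 0.064 for *Lrp5*, -0.70 to 0.076 for *Tcf7*, -0.24 to 0.19 for *Tcf7l2*, -0.62 to 0.070 for *Fzd2*, -1.06 to 0.89 for *Fzd6*, -0.18 to 0.26 for *Fzd8* and -0.76 to 0.13 for *Wnt5b*. In 15 further genes they kept their sign but moved by over 1.5 times, farthest without a *p53*-deleted line to -0.59 for *Wnt5a*, 6.65 for *Wnt7a*, 3.76 for *Dkk2*, -0.69 for *Dkk3*, -0.20 for *Wnt9a* and 0.20 for *Fzd9* (line 1), -2.08 for *Wnt7b*, -0.33 for *Lgr5* and -0.27 for *Wnt2b* (line 2) and -0.37 for *Wnt10a* and -0.47 for *Tcf7l1* (line 3), and without a *Cdkn2a*-deleted line to -4.56 for *Wnt10b* (line 1) and -7.99 for *Rspo3*, -4.75 for *Wnt16* and -1.60 for *Axin2* (line 3). Raw library totals, an alternative chosen after seeing the data, moved the median log2 fold change of all genes by -0.13.

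The number of genes of the list called between genotypes, 1 in the report (0 higher and 1 lower in the *Cdkn2a*-deleted lines, and 2 other pathway genes), depended on the tool and on the unit of replication. Where the 18 cultures stood as separate samples it was 22 of 36 tested with edgeR (5 higher, 17 lower, 24 other pathway genes), beside 46.5% of all genes. With DESeq2 on these samples it was 27 of 49 tested (6 higher, 21 lower, 26 other), beside 40.5%. With the line as a random effect in limma-voom it was 8 of 36 tested (3 higher, 5 lower, 11 other), beside 16.6%. With DESeq2 on the 6 lines it was 11 of 48 tested (4 higher, 7 lower, 12 other), beside 11.6%. With upper-quartile factors, raw library totals or no filter it was 2 (of 39, 39 and 49 tested), both lower, beside 2.1%, 2.78% and 1.72% of all genes. With raw library totals 4 other pathway genes were called. With a line left out it ran from 0 to 3 of 39 or 40 tested (0 to 1 higher, 0 to 3 lower, 0 to 0 other pathway genes), beside 0 to 1.11% of all genes. An unadjusted p under 0.05 with edgeR was then reached by 10 to 15 genes of the list, beside 16.8% to 21.6% of all genes, and 7 of the 16 reported were under it whichever line was left out. The counts without overlap and among lines stayed within 1.5 times of those reported under every alternative run. The cause of these changes was not tested.

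Line numbers name tumors, and same-numbered lines of the genotypes did not deviate together (correlations -0.13 to -0.08). With the line number as a replicate block, 0 genes of the list and 0 other pathway genes were called by edgeR (14 and 11 at an unadjusted p under 0.05, 0 of all 15207 genes called). With the culture number as a block on the 18 cultures, 21 of 36 tested were called (5 higher, 16 lower, 22 other pathway genes), beside 43.3% of all genes.

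With 3 lines per genotype, differences below about 2 on the log2 scale were often missed in the simulated counts, so genes of the list without a call are not shown to be alike. Genes of the list spread more between lines than all genes do, so larger differences among them can be missed too. *Sfrp2*, at a log2 fold change of -9.81, had an adjusted p of 0.0512 with edgeR. Genes with few counts, such as the R-spondins other than *Rspo2*, are limited by depth.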
